A study of Mus musculus with 2 samples.

Results

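The 10 tubulin isotype genes described here comprise 4 alpha tubulins (Tuba1a, Tuba1b, Tuba1c and Tuba4a) and 6 beta tubulins (Tubb2a, Tubb2b, Tubb3, Tubb4b, Tubb5 and Tubb6), out of 43346 mouse genes measured. They were chosen by gene symbol and found in the expression tables by gene identifier, and all 10 were present. The tissue was lung of B6NCrl mouse embryos at embryonic day 14.5, with no treatment or genetic change given in the labels. Total RNA of at least 200 nt, 10.0 ng per library, was sequenced as 2 libraries, biological replicates 2 and 1 of 1 group. The labels call each sample both a lung of 1 pup and a pool of male and female tissue, so the number of embryos behind a library is uncertain. The samples were collected on different days, and library and day cannot be told apart.

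Microtubules are hollow polymers of alpha and beta tubulin heterodimers. Mammals carry several genes, called isotypes, for each subunit. The encoded proteins often differ in a short acidic tail at the C terminus. That tail lies on the outside of the microtubule and carries many of its modifications. In the embryonic lung, microtubules form the spindles of dividing cells, the primary cilia and the tracks for vesicle transport, and later the axonemes of motile airway cilia. Several isotypes are known for particular cells. Tubb3 is a standard marker of neurons, Tubb1 builds the marginal band of platelets, and Tubb4b is a main beta tubulin of motile cilia besides being widely expressed.

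The coding ends of 8 isotypes are shown because the tail is a stretch in which many isotypes differ. Its last codon also sets whether an alpha tubulin is made with a C-terminal tyrosine, a residue that enzymes can remove and add back. Each sequence is the last 51 nt of the coding strand, 5′ to 3′, taken from the GENCODE M21 annotation of GRCm38, which is mm10, with the last amino acid codon in capitals and the stop codon after it.
Tuba1b: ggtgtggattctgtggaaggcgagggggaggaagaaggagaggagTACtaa
Tuba1c: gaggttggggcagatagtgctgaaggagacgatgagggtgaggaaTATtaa
Tuba4a: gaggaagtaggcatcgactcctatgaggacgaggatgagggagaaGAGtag
Tubb5: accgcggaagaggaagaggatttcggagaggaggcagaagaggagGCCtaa
Tubb4b: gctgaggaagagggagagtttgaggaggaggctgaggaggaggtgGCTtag
Tubb2a: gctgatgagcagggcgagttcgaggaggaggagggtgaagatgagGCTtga
Tubb2b: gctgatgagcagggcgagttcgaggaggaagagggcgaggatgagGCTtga
Tubb3: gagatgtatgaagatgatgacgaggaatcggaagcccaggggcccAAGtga

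The tails of Tubb2a and Tubb2b differed at 3 of 51 nt and at 0 of 16 residues. Set at the same distance from the stop codon, the tails of Tuba1b and Tuba1c differed at 22 nt and 8 residues, and those of Tubb4b and Tubb5 at 19 nt and 9 residues. Between 8 and 11 of the last 16 residues were aspartate or glutamate in the 10 isotypes. Tuba1a, Tuba1b and Tuba1c end in a tyrosine codon, whereas Tuba4a ends in glutamate and has no encoded terminal tyrosine. Tubb2a, Tubb2b, Tubb4b and Tubb5 end in alanine, Tubb6 in glutamate and Tubb3 in lysine, with no other lysine or arginine in any of the 10 tails.

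In the genome the tails of Tuba1b (chr15:98931582-98931632), Tuba4a (chr1:75215622-75215672), Tubb5 (chr17:35834982-35835032), Tubb4b (chr2:25222308-25222358), Tubb2a (chr13:34074468-34074518) and Tubb2b (chr13:34127471-34127521) lie on the minus strand. Those of Tuba1c (chr15:99037959-99038009) and Tubb3 (chr8:123421632-123421682) lie on the plus strand. Each of these tails falls within 1 coding exon, and the coding transcript used for each of the 10 genes has 4 exons. That transcript was the one with the longest complete coding sequence, which for Tuba4a was not its most abundant transcript. Tuba1b, Tuba1a and Tuba1c lie close together on chromosome 15, at 98931425-98934565, 98949837-98953703 and 99029891-99038110. Tubb2a and Tubb2b lie together on chromosome 13, at 34074274-34078007 and 34126748-34130466.

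The start of the coding sequence is the other stretch with a known role in tubulin RNA. When free tubulin is in excess, the protein encoded by Ttc5 recognises the first residues of a tubulin chain as it leaves the ribosome and the mRNA is degraded. All 4 alpha isotypes encode methionine, arginine, glutamate and cysteine there, and all 6 beta isotypes encode methionine, arginine, glutamate and isoleucine. The first 12 nt are shown for the most abundant isotype of each kind, with the fourth codon, where alpha and beta differ, in the last 3 letters.
Tuba1b: atgcgtgagtgc
Tubb5: atgagggaaatc
Ttc5 itself was expressed at 49.5 TPM in replicate 2, against 49.3 TPM in replicate 1. Read numbers are the deposited expected counts, which are estimates and need not be whole. TPM is the deposited abundance unit, which divides estimated reads by effective length and can therefore be compared between genes.

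Alpha tubulin RNA came almost entirely from the Tuba1 genes. Tuba1b, the leading alpha isotype, reached 1771 TPM in replicate 2, against 1682 TPM in replicate 1 and ranked 32 among 21474 protein-coding genes by mean TPM. Tuba1a, a major alpha tubulin of developing neurons whose human counterpart is mutated in brain malformations, had 1067 TPM in replicate 2, against 1004 TPM in replicate 1, and ranked 85. The Tuba1b level was 1.66 times that of Tuba1a in replicate 2 and 1.68 times in replicate 1. Tuba1c, the third gene of the cluster, stood well under both, at 174 TPM in replicate 2, against 163 TPM in replicate 1. Tuba4a, whose product lacks the encoded tyrosine, had only 16.8 TPM in replicate 2, against 19.4 TPM in replicate 1.

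Among the beta isotypes, Tubb5, the widely expressed counterpart of human TUBB, led with 972 TPM in replicate 2, against 906 TPM in replicate 1, and ranked 98. Tubb4b followed at 492 TPM in replicate 2, against 466 TPM in replicate 1. Tubb6, also widely expressed outside the brain, had 192 TPM in replicate 2, against 181 TPM in replicate 1. The near-identical Tubb2a and Tubb2b, both abundant in brain, differed widely in level. Tubb2a had 134 TPM in replicate 2, against 133 TPM in replicate 1, whereas Tubb2b had 13.9 TPM in replicate 2, against 12.6 TPM in replicate 1, so that Tubb2a stood 9.59 times above Tubb2b in replicate 2 and 10.6 times in replicate 1. Tubb3 was the lowest of all, at 1.34 TPM from 53 reads in replicate 2, against 2.33 TPM from 92 reads in replicate 1.

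The order of levels, Tuba1b, Tuba1a, Tubb5, Tubb4b, Tubb6, Tuba1c, Tubb2a, Tuba4a, Tubb2b and Tubb3, was the same in both libraries. The files give a posterior standard deviation for each count, which measures how uncertainly reads that fit more than 1 gene were assigned. When each level was widened by 2 of these in both libraries, no neighbours in the order overlapped. The closest neighbours were Tuba1a above Tubb5, by a ratio of mean TPM of 1.10, and Tubb6 above Tuba1c, by 1.11. The lowest Tubb6 value was 180.5 TPM and the highest widened Tuba1c value 178 TPM, so that pair was barely separated. The widening covers the assignment of reads but not counting error, and 2 libraries give little information on spread between embryos.

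**Figure D1:**
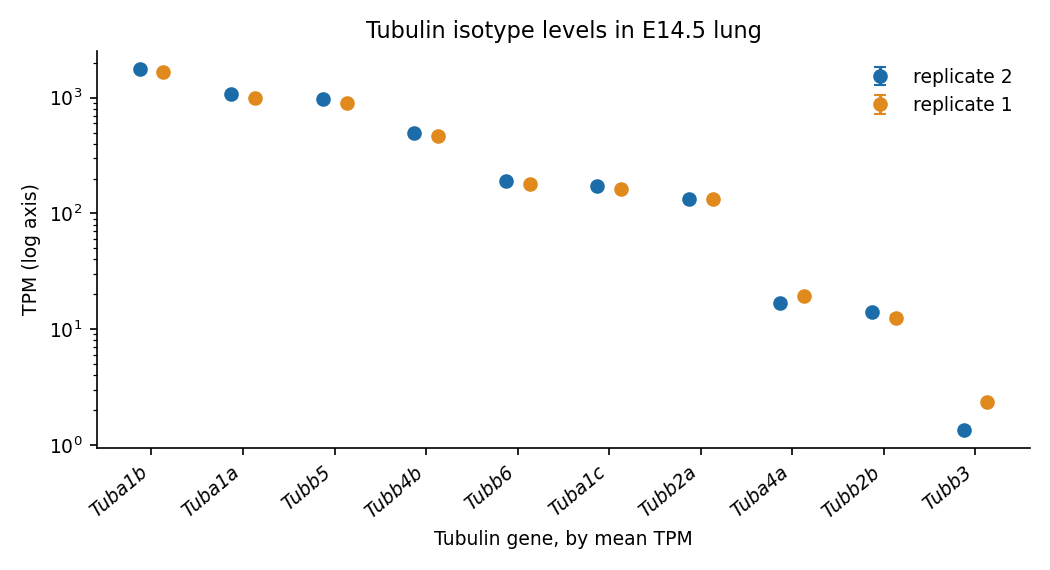
TPM of the 10 isotypes (log axis) in replicate 2 (blue) and replicate 1 (orange), ordered by mean TPM; bars of 2 posterior standard deviations are smaller than the points, and are 0 for Tubb3 and Tubb6 in both libraries and for Tubb5 in replicate 2. Levels run down from Tuba1b near 1727 TPM on average to Tubb3 near 1.84 TPM, with a wide step between Tubb2a and Tuba4a.

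Summed over the isotypes, the alpha genes reached 3029 TPM in replicate 2, against 2868 TPM in replicate 1, and the beta genes 1805 TPM in replicate 2, against 1700.3 TPM in replicate 1. The alpha to beta ratio of RNA was 1.68 ± 0.0066 (SD, n = 2). Together the 10 genes took 0.583% of mouse gene reads in replicate 2 and 0.569% in replicate 1. In bulk tissue, fewer cells that express a gene and less RNA of it per cell cannot be told apart.

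Within the alpha pool Tuba1b made up 58.5% of TPM in replicate 2 and 58.6% in replicate 1. Tuba1a made up 35.2% in replicate 2 and 35.0% in replicate 1, Tuba1c 5.74% and 5.67%, and Tuba4a 0.554% and 0.677%, each in the same order. RNA for alpha tubulin with an encoded tyrosine was therefore 99.4% of the pool in replicate 2 and 99.3% in replicate 1. All 4 alpha isotypes encode lysine at position 40, counted from the initiator methionine, the residue acetylated by the product of Atat1 in stable microtubules.

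Within the beta pool Tubb5 made up 53.9% of TPM in replicate 2 and 53.3% in replicate 1, and Tubb4b 27.2% and 27.4%, each in the same order. Tubb6 held 10.7% in replicate 2 and 10.6% in replicate 1. Tubb2a held 7.40% in replicate 2 and 7.82% in replicate 1, Tubb2b 0.771% and 0.739%, and Tubb3 0.074% and 0.137%. At position 239, a reactive cysteine in Tubb2a, Tubb2b, Tubb4b and Tubb5 is replaced by serine in Tubb3 and Tubb6. Isotypes with the cysteine accounted for 89.3% of beta TPM in replicate 2 and 89.2% in replicate 1.

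**Figure D2:**
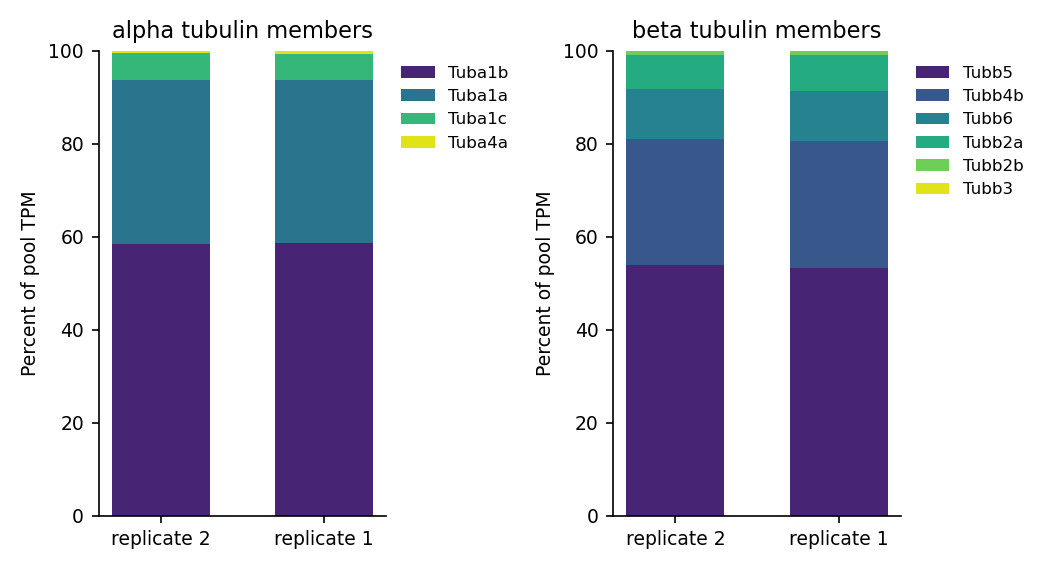
Percent of summed alpha (left) and beta (right) isotype TPM carried by each gene, in replicate 2 and replicate 1. Tuba1b with Tuba1a, and Tubb5 with Tubb4b, fill most of each bar in both libraries, and the bars of the libraries look alike.

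The isotypes differ in how far their reads could be told apart. Tuba1a and Tuba1b encode proteins that differ at 2 of 451 residues, and their coding sequences differ at 23 nt. The longest coding stretch identical in Tuba1a, Tuba1b and Tuba1c was 239 nt. Tubb2a and Tubb2b differ at 2 of 445 residues and share an identical stretch of 551 nt. Over all pairs, protein identity ran from 95.8% to 99.6% within the 6 alpha pairs and from 90.2% to 99.6% within the 15 beta pairs. The least alike were Tubb2a and Tubb6.

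The effective length in the files equals transcript length minus 99 nt, so 100-nt windows of the annotated transcripts were compared with those of all other genes. In Tuba1b 62.1% of the windows occurred unchanged in another gene, in Tuba1a 56.8%, and in Tuba1c 53.4%. The share was 35.9% in Tubb2a, 26.1% in Tubb2b and 22.0% in Tubb4b, and no window of Tubb3, Tubb5 or Tubb6 was shared. For Tuba4a all 1280 shared windows were with Stk16, a kinase gene that overlaps it on the opposite strand by 1379 nt. Tuba4a and Stk16 had the same posterior standard deviation, 6.87 reads in replicate 2 and 4.59 in replicate 1, and their counts summed to whole numbers, 2917 in replicate 2 and 2649 in replicate 1. Reads were thus divided between these genes across strands, and how the authors set strand in counting is not stated in the labels.

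Posterior standard deviations were small against the level of most isotypes. They came to 123 reads of 64935 for Tuba1b in replicate 2 and 118 of 61505 in replicate 1, and to 104 of 36796 for Tuba1a in replicate 2 and 103 of 34497 in replicate 1. Relative to its count the uncertainty was larger for Tuba1c, at 92.8 of 7306 reads in replicate 2 and 90.3 of 6816 in replicate 1. It then exceeded the counting error (the square root of the count), which was 85.5 reads in replicate 2 and 82.6 in replicate 1. Tubb2b had the largest relative value among the 10, 15.5 reads of 568 in replicate 2 and 15.4 of 511 in replicate 1, whereas the same number of reads was small beside the 4439 and 4406 reads of Tubb2a in replicates 2 and 1.

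Copies of tubulin genes took few reads. In all, 9 processed pseudogenes shared windows with an isotype, and together they held 291 reads in replicate 2 and 285 in replicate 1, which equals 0.150% and 0.157% of the reads of the 10 isotypes. Ranked by the most windows shared with any 1 isotype, they were led by Gm17383, Gm14150, Tubb4b-ps1 and Gm6682. Gm14150, which shared 523 windows with Tuba1b, had the most reads of these 4, with 155 in replicate 2 and 168 in replicate 1. Tubb3 lies inside Gm20388, a longer gene on the same strand with 152 reads in replicate 2 and 126 in replicate 1, and the posterior standard deviation of the Tubb3 count was 0 in both libraries.

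**Figure D3:**
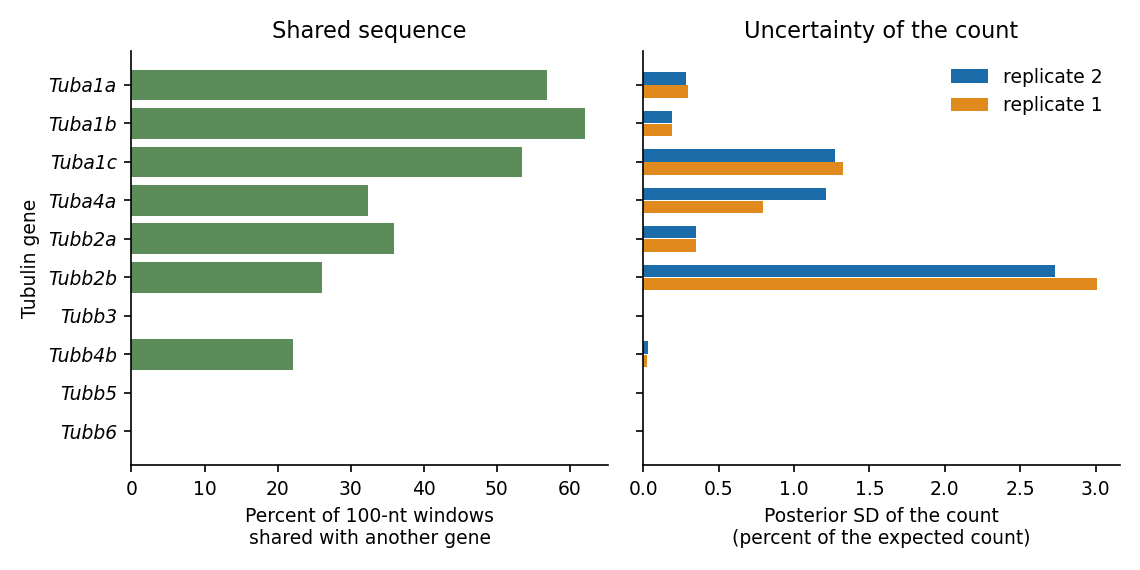
Left, percent of 100-nt windows of each isotype found unchanged in another gene; right, posterior standard deviation as a percent of the expected count, in replicate 2 (blue) and replicate 1 (orange). The Tuba1 genes share most sequence, while Tubb2b and Tuba1c, the scarcer partners of near-identical genes, have the most uncertain counts.

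At the level of transcripts, 9 of the 10 isotypes were simple. Tuba1c, Tubb2a, Tubb2b, Tubb3 and Tubb6 had a single annotated transcript, and protein-coding transcripts carried at least 99.06% of TPM in Tuba1a, Tuba1b, Tubb4b and Tubb5, with 1 transcript of each over the 10% mark. Tuba4a had 8 transcripts, 5 of them with 10% or more of its TPM in either library. Tuba4a-206 carried 39.8% of Tuba4a TPM in replicate 2 and 40.5% in replicate 1. Tuba4a-201 carried 32.1% in replicate 2 and 15.1% in replicate 1, and Tuba4a-204 carried 2.57% in replicate 2 and 15.96% in replicate 1. Behind the last values stand 7.19 reads with a posterior standard deviation of 11.4 in replicate 2, and 51.6 with one of 16.5 in replicate 1. Tuba4a-205, a transcript with a retained intron, carried 14.0% in replicate 2 and 14.3% in replicate 1. Tuba4a-202, from which the Tuba4a coding sequence and residues given here were taken, carried 11.6% in replicate 2 and 13.1% in replicate 1.

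The transcript mix also enters the Tuba4a level. Its reads were 568 in replicate 2 and 579 in replicate 1, but its effective length was 1513 nt in replicate 2 and 1336 nt in replicate 1, since the reads were split differently among its transcripts. The Tuba4a level of 16.8 TPM in replicate 2, against 19.4 TPM in replicate 1, carries that difference in length as well as the reads.

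**Figure D4:**
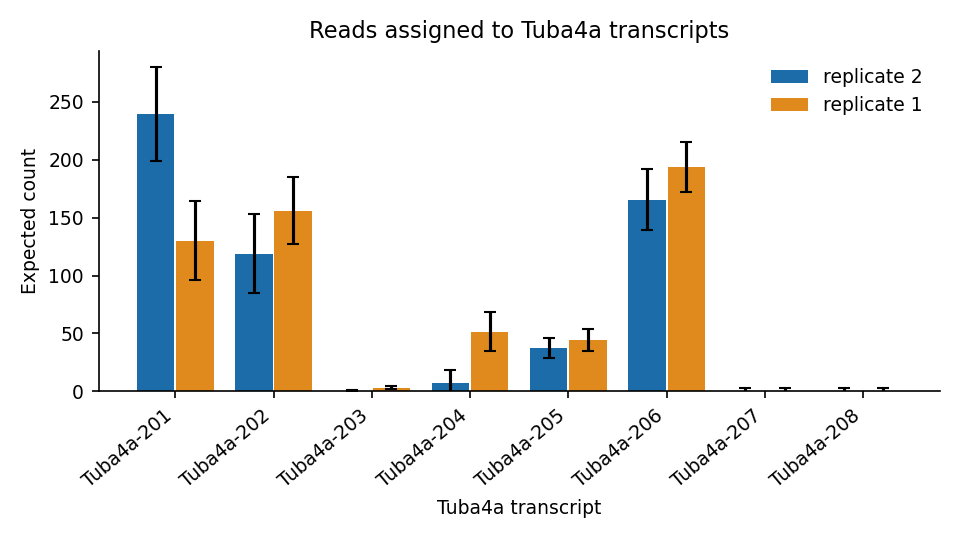
Expected counts of the 8 Tuba4a transcripts in replicate 2 (blue) and replicate 1 (orange), with bars of 1 posterior standard deviation. Tuba4a-201 had 239 reads in replicate 2 and 130.1 in replicate 1, with bars of 40.7 and 34.2 reads.

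The libraries were then set against each other isotype by isotype. Each log2 ratio puts replicate 2 over replicate 1 and comes from reads scaled by TMM (a library scaling in edgeR) with 0.5 added. An exact two-sided binomial test of the 2 counts was adjusted by Benjamini-Hochberg over 14870 genes with mean TPM of 1 or more, and a gene was called at an adjusted p under 0.05 and a ratio of at least 2-fold. This compares 2 libraries, not conditions. None of the 10 isotypes was called, while 1.1% of all tested genes were (164), and edgeR's exact test also called 0 isotypes. At an unadjusted p under 0.05, regardless of fold, there were 3 isotypes by the binomial test, where 32.7% of all tested genes were, and 1 by edgeR's exact test, where 3.82% were. The median size of the isotypes' log2 differences was 0.04, beside 0.098 over all tested genes and 0.052 over the 1494 protein-coding genes at 100 TPM or more.

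With the fold limit set aside, 2 isotypes were higher in replicate 2, where 10.9% of all tested genes were, and 1 was lower, where 11.3% were. Tubb5 had 55059 reads in replicate 2 and 51164 in replicate 1, a log2 ratio of 0.043 (95% interval 0.026 to 0.061, adjusted p = 2.3e-05). Tuba1a had a log2 ratio of 0.031 (0.0093 to 0.052, adjusted p = 0.0261). Both differences are a few percent in size and rest on deep counts with very small counting error. Under edgeR's exact test, which adds a coefficient of variation of 9.58% estimated from these 2 libraries, the adjusted p was 1 for both. That variation comes from the same 2 libraries that were compared, so differences of a few percent could hardly pass this test.

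Tubb3 showed the widest difference, with 53 reads in replicate 2 and 92 in replicate 1. Its level was 1.81-fold lower in replicate 2 (log2 ratio -0.85, 95% interval -1.37 to -0.36, adjusted p = 0.00504), which passed the test of the counts but not the 2-fold limit. The adjusted p was 0.524 under edgeR's exact test and 0.0565 with scaling to spike-in RNA. Protein-coding genes at a mean TPM from 1 to 3 had a median log2 difference of 0.25 in size and a 95th percentile of 0.98.

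Neuron markers did not all go the same way. Of 21 listed markers, 7 were detected, meaning 1 TPM or more in both libraries, and the summed level of all 21 was 31.2 TPM in replicate 2, against 36.5 TPM in replicate 1. Of the 10 tested, 8 had log2 ratios under 0 and 2 above 0, and Prph and Nefl, which encode neuronal intermediate filaments, were called lower in replicate 2. Over all tested genes 1.1% were called in either direction. At any size, 0 of the 10 were higher and 3 lower in replicate 2 at an adjusted p under 0.05. The shares over all tested genes were 10.9% higher and 11.3% lower. Gap43, the highest of the markers, had a log2 ratio of -0.025, and Snap25 one of 0.44 (adjusted p = 0.337). Prph had 27 reads in replicate 2 and 53 in replicate 1, and Nefl had 78 in replicate 2 and 155 in replicate 1. Stmn2, which encodes a neuronal destabiliser of microtubules, had 3.74 TPM in replicate 2, against 5.94 TPM in replicate 1 (log2 ratio -0.72, adjusted p = 8.8e-06). Under edgeR's exact test the adjusted p was 0.557 for Prph, 0.26 for Stmn2 and 0.0265 for Nefl. With scaling to spike-in RNA neither Prph (log2 ratio -0.68, adjusted p = 0.0642) nor Nefl (log2 ratio -0.71, adjusted p = 0.00058) was called. No neuron marker was at 0 in both libraries, and the part of neurons in the Tubb3 difference was not tested.

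The other 7 isotypes gave no difference at an adjusted p under 0.05. Their log2 ratios ran from -0.09 for Tuba4a (95% interval -0.26 to 0.079) to 0.09 for Tubb2b (-0.085 to 0.27). For Tuba1b, the most deeply read isotype, the interval was -0.0001 to 0.032, and for Tubb4b it was -0.0087 to 0.055. The intervals cover counting error only. Tubb2a had nearly equal TPM in the libraries but a log2 ratio of -0.052. This is because the median log2 TPM ratio, replicate 2 over replicate 1, was itself 0.055 over tested genes with TPM above 0 in both. With scaling to spike-in RNA, which moved the median of all tested genes by 0.34, Tuba4a and Tubb2a had positive log2 ratios, of 0.25 and 0.29.

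**Figure D5:**
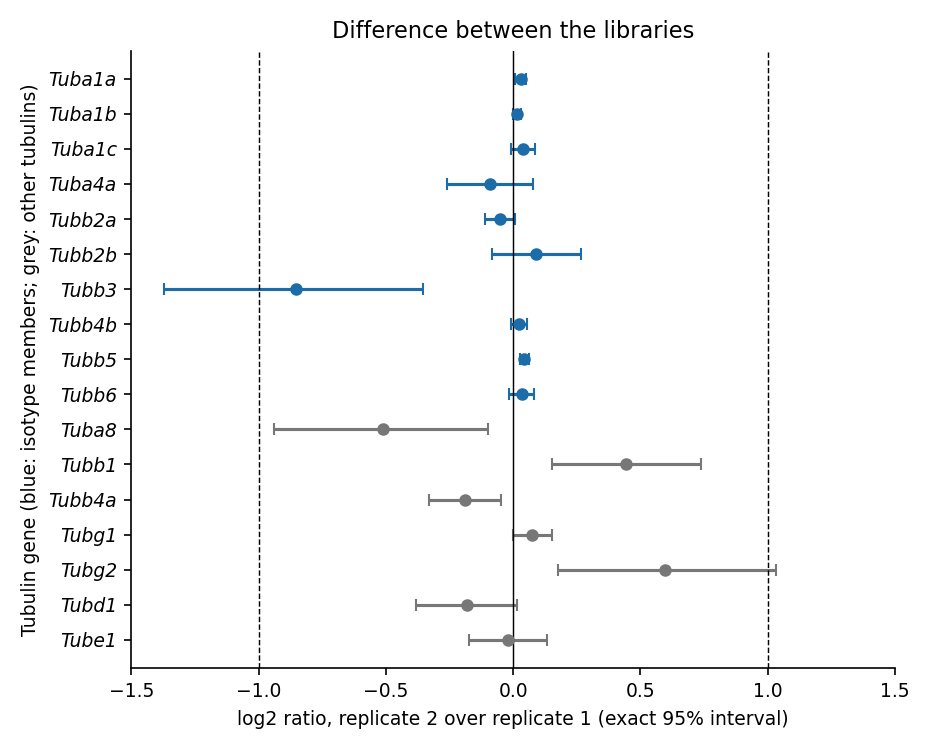
Log2 ratios, replicate 2 over replicate 1, of the 10 isotypes (blue) and 7 other tubulin genes (grey), with exact 95% intervals and dashed lines at a 2-fold difference. Abundant isotypes lie close to 0, and Tubb3, with 53 reads in replicate 2 and 92 in replicate 1, lies farthest from it.

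The remaining alpha and beta tubulin genes added little to the pool, 26.5 TPM in replicate 2, against 26.3 TPM in replicate 1 in all. Tubb4a, known from brain and oligodendrocytes, made up most of that, with 16.4 TPM in replicate 2, against 17.99 TPM in replicate 1, which places it above Tubb2b and far above Tubb3. Its log2 ratio was -0.19 (adjusted p = 0.0408). Tubb1, the platelet isotype, had 8.07 TPM from 236 reads in replicate 2, against 5.70 TPM from 166 reads in replicate 1 (log2 ratio 0.44, adjusted p = 0.016). Markers of the platelet lineage were present beside it, 7 of 8 detected, and all 8 summed to 76.2 TPM in replicate 2, against 71.6 TPM in replicate 1. All 8 had log2 ratios above 0, with a median of 0.11. None of those 8 reached an adjusted p under 0.05, and their part in the Tubb1 difference was not tested.

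Tuba8, known mainly from heart, skeletal muscle and testis, had 1.76 TPM in replicate 2, against 2.43 TPM in replicate 1 (log2 ratio -0.51, adjusted p = 0.0622). Heart muscle markers differed strongly between the libraries, 44.1 TPM summed over 14 genes in replicate 2 and 497 TPM in replicate 1, with 10 of the 12 tested called lower in replicate 2 and Nppb at 0 in both. Skeletal muscle markers summed to 48.9 TPM in replicate 2, against 64.9 TPM in replicate 1, with 4 of 14 detected. Pax7 was at 0 in both libraries, and 3 of the 6 tested (Ckm, Acta1 and Myl1) were called lower in replicate 2. Of those 6, 5 had log2 ratios under 0 and Mylpf one of 0.25. Des made up most of both sums, at 34.4 TPM in replicate 2, against 36.1 TPM in replicate 1. Among the untested markers, Myod1, Myog, Myf5 and Myh3 had more reads in replicate 2, and Myf6, Myh8 and Tnni2 fewer, each on few reads. Beside both muscle lists, 1.1% of all tested genes were called in either direction. The part of muscle tissue in any isotype's level was not tested. Tuba3a had 8 reads in replicate 2 and 6 in replicate 1, and Tuba3b and Tubal3 had 0 reads in both libraries, where a count of 0 allows up to 3 reads.

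Among tubulins outside the alpha and beta families, Tubg1, the gamma tubulin from which microtubules are nucleated, had 77.5 TPM in replicate 2, against 70.5 TPM in replicate 1. Its paralog Tubg2 had 3.28 TPM in replicate 2, against 2.08 TPM in replicate 1 (log2 ratio 0.60, adjusted p = 0.0259). Tubd1 and Tube1, the delta and epsilon tubulins of centrioles, had 11.6 and 11.2 TPM in replicate 2, and 11.7 and 11.0 TPM in replicate 1. No tubulin gene of any family passed the 2-fold call. Under edgeR's exact test the adjusted p of Tubb4a, Tubb1, Tuba8 and Tubg2 was 1, and with scaling to spike-in RNA the log2 ratio of Tubb4a was 0.15.

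The machinery that folds tubulin was expressed throughout. All 22 genes listed under tubulin folding were detected and none was called, and their sum was 4226 TPM in replicate 2, against 4173 TPM in replicate 1. The list covers the chaperonin CCT, prefoldin and the tubulin cofactors, and also holds Tbcel, Arl2 and Ttc5. The highest were the CCT subunit genes Cct3, Cct5 and Tcp1 and the prefoldin gene Pfdn5. Cct3, for example, had 493 TPM in replicate 2, against 474 TPM in replicate 1. At any size, 0 of the 22 were higher and 3 lower in replicate 2 at an adjusted p under 0.05. Over all tested genes the shares were 10.9% higher and 11.3% lower.

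Enzymes that modify tubulin tails and lysine 40 were detected for 19 of 27 listed genes, and none was called. The highest were Svbp, the partner of the detyrosinating vasohibins, at 108 TPM in replicate 2, against 105 TPM in replicate 1, and the lysine acetyltransferase gene Atat1 at 62.8 TPM in replicate 2, against 56.5 TPM in replicate 1. Tpgs1, a subunit of a polyglutamylase, and Sirt2, a deacetylase, followed. Ttl, whose product adds the tyrosine back, had 14.1 TPM in replicate 2, against 12.9 TPM in replicate 1, Vash1 had 11.5 and 9.99 TPM, and Vash2 had 32.8 and 29.9 TPM, each in the same order. These 3 and Ttc5 were named for their link to the sequences shown, after their values had been seen. At any size, 3 of the 19 were higher in replicate 2 and 2 lower at an adjusted p under 0.05. Over all tested genes the shares were 10.9% and 11.3%.

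Of 35 genes of microtubule binding 33 were detected and 0 of the 34 tested were called, with 6 higher and 5 lower in replicate 2 at any size. Stmn1, which binds free tubulin dimers, far exceeded the rest, at 1430 TPM in replicate 2, against 1352 TPM in replicate 1, next to the 3029 TPM and 2868 TPM of the alpha isotypes in replicates 2 and 1. Mapre1, a plus-end binding protein, had 184 TPM in replicate 2, against 201 TPM in replicate 1, and the kinesin gene Kif5b and the polymerase gene Ckap5 came next. All 21 genes of microtubule nucleation were detected and none was called, with 2 higher and 1 lower at any size. Beside both lists, 10.9% of all tested genes were higher and 11.3% lower at an adjusted p under 0.05. Tpx2, a spindle assembly factor, led them with 99.7 TPM in replicate 2, against 95.3 TPM in replicate 1, ahead of Tubg1 and the augmin genes Haus7 and Haus1.

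As a check of the tissue, all 14 lung markers were detected, with a sum of 4511 TPM in replicate 2, against 4404 TPM in replicate 1. Of these, 0 were called, and at any size 1 was higher and 6 were lower in replicate 2. For this list and the next 2, the shares over all tested genes were 10.9% higher and 11.3% lower at any size. All 14 proliferation genes were detected, with 0 called and 5 higher and 1 lower at any size, summing to 2813 TPM in replicate 2, against 2640 TPM in replicate 1. Of 15 ciliated cell markers 7 were detected, and all 15 summed to 60.3 TPM in replicate 2, against 59.8 TPM in replicate 1, with 0 called, 2 of the 8 tested lower at any size and Sntn at 0 in both. Foxj1, the regulator of motile cilia, had 1.03 TPM in replicate 2, against 1.63 TPM in replicate 1 (log2 ratio -0.72, adjusted p = 0.0181 by the binomial test). The other marker lower at any size was Mcidas, with 46 reads in replicate 2 and 86 in replicate 1 (log2 ratio -0.96, adjusted p = 0.00245). Log2 ratios were under 0 for 6 of the 8 tested ciliated cell markers and above 0 for 2. Those above 0 were Tppp3, the highest of these markers (log2 ratio 0.0455), and Dnaic1 (0.23). Tppp3 had 34.3 TPM in replicate 2, against 32.4 TPM in replicate 1. Rfx3 had 11.7 TPM in each library, and Tppp3 and Rfx3 together made up most of the summed level of these markers. Tubb4b had 492 TPM and 466 TPM in the same order. The part of ciliated cells in the Tubb4b level was not tested. Summed reads of mouse genes were 33167255 in replicate 2 and 31940637 in replicate 1, and spike-in RNA took 3.96% and 4.94% of all reads in the same order.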

How the data were processed

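Each library came with tables for genes and for transcripts. Per the file headers, the authors deposited the expected count (an estimated read number), TPM (scaled over all features, spike-ins included), the posterior mean count and TPM, the posterior standard deviation of the count and, for transcripts, the percent of the gene's TPM. The deposited read-me files name mm10, GENCODE M4 and transcriptome alignments, and aligner, quantifier and strand setting are not given in the sources at hand. Names, coordinates (1-based) and sequences came from GENCODE M21 on GRCm38, and 42462 of 43346 mouse genes matched by unversioned identifier.

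Rounded expected counts were scaled by TMM in edgeR 4.0.16 (R 4.3.3), on 14870 genes with mean TPM of 1 or more. Tests were exact binomial tests (scipy 1.17.1) with Clopper-Pearson 95% intervals and Benjamini-Hochberg adjustment. The calls, not the intervals, were run on simulated counts that held counting error alone. That run therefore cannot show how the test behaves with spread between embryos. Alternatives were DESeq2 1.42.0 size factors, total counts, spike-in sums, no filter, a 1.5-fold limit, edgeR's exact test with 1 common dispersion (estimated from both libraries as 1 group), posterior means, a prior count of 5, a detection limit of 0.5 TPM, TPM over mouse genes alone and the addition of the other tubulin genes. Nothing mentions molecular identifiers, so intervals cover counting error only. With libraries of 34535168 and 33601136 reads in replicates 2 and 1, abundant isotypes have very narrow intervals. P-values compare these 2 libraries only. All isotypes and other tubulin genes are named. Of the folding, modification, binding and nucleation lists the 4 highest genes are named. Counts and sums are given for the marker, lung and proliferation lists, with genes at 0 in both libraries. Single marker genes named beyond this were picked with their values known, and the called heart muscle genes are not named. The isotypes and all 13 lists were chosen with earlier results of these data known. The tail sequences of Tuba1a and Tubb6 are not reported here.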

Additional observations from a re-analysis of the deposited data

How the results depend on the processing

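The number of genes called between the libraries was 164, and it became 283 with scaling to the spike-in sum (69.96% of them higher in replicate 2, beside 31.1%), 477 with no filter on low values, 384 with a 1.5-fold limit and 106 by edgeR's exact test. The number of isotypes called was 0 under the other settings and 1, Tubb3, with the 1.5-fold limit. Isotypes with an adjusted p under 0.05 at any fold numbered 3. They numbered 9 with the spike-in sum, 4 with total counts and 0 by edgeR's exact test. At an unadjusted p under 0.05 by the binomial test, 10 isotypes and 11676 of all 14870 tested genes passed with the spike-in sum. With TMM scaling 3 isotypes and 4859 genes passed, and with total counts 4 and 4880. The spike-in sum gave all tested genes a median log2 ratio of 0.34. The adjusted p of Tubb3 ranged from 0.00504 to 0.524. With the spike-in sum the log2 ratios of Tuba4a (0.2518) and Tubb2a (0.2904) turned positive. Summed isotype TPM was 5214 over mouse genes alone, beside 4701. With the other alpha and beta tubulin genes included, the share of Tubb5 was 52.9%, beside 53.6%, and the alpha to beta ratio 1.66, beside 1.68. Mean Tubb2a TPM was 129.9 from posterior means, beside 133, and 11 neuron markers were detected at a limit of 0.5 TPM, beside 7. Leaving out either library moved the summed TPM between 4569 and 4834. The causes were not tested. With 2 libraries of 1 group, spread between embryos is poorly known, and the Tubb3 interval, -1.37 to -0.36, is wide because few reads stand behind it. No paired analysis was possible because there is only 1 group.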
